A study of Mus musculus with 7 samples.

Results

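In the mouse genome, 16343 bins of 500 bp held capture-reporter fragments that in large part had low mapping quality scores. Their output from the pPGK promoter was examined here. They were chosen by reads of the pPGK input, the plasmid pool before transfection, and by the scores listed at the positions of those reads. A listed score can come from a reporter or an input read, so that the choice is not independent of the readout. A bin needed at least 50 input reads, and at least 50% of those reads had to carry a mapping quality score under 30. These bins made up 24.9% of the 65601 bins with at least 50 input reads, and they held 36.7% of all input reads. They were set against the 28834 bins in which under 2% of input reads scored below 30, called high-quality bins. Coordinates are of build mm9 and start at 1.

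The libraries came from P5424, a mouse T cell line, into which captured DNase hypersensitive sites had been introduced in a self-transcribing reporter (CapStarr-seq). Each group was 1 library: SCP1 (a synthetic core promoter), pPGK (the phosphoglycerate kinase promoter), pPGK PMA_I and pR-Ea, with inputs for SCP1, pPGK and pR-Ea. Since all samples list PMA and ionomycin as treatment, only the title marks pPGK PMA_I as the stimulated library. The results on low-scoring reads rest on pPGK and its input, with 72217277 and 30248710 reads, because no read under 30 is listed in the SCP1 and pR-Ea files and almost none among the pPGK PMA_I reporter reads.

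In this assay a fragment is placed in the transcribed part of the plasmid, so that it is copied into the RNA it regulates. A fragment with more reads in RNA than in the plasmid pool, relative to the other fragments, raised its own transcript, and one with fewer lowered it or the recovery of its RNA. The mapping quality score states how much better the best alignment of a read is than the next one. Bowtie2 gives the lowest scores to reads that align as well, or nearly as well, somewhere else, as reads from transposons, satellite arrays, segmental duplications and short tandem repeats often do. By default it then lists the read at 1 of the equally good places. The reads of a low-quality bin can therefore come from other copies of its sequence. No genome or repeat annotation of build mm9 was used here, so that the bins are described by score and not by repeat class, and no sequence is shown.

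The scores of the chosen bins were mostly at the bottom of the scale. Of their input reads, 78.9% had a score of 0 or 1, 2.78% a score of 2 to 9, and 3.0% a score of 10 to 29. The remaining reads scored 30 to 41 (7.51%) or the maximum of 42 (7.77%). In high-quality bins the maximum score was carried by 88.1% of input reads. In 3945 of the chosen bins every input read scored below 30.

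The low-quality bins fell into 11658 stretches of adjacent bins. A single bin stood alone in 8908 stretches, 2394 stretches had 2 or 3 bins, and 356 had 4 or more. Unplaced and random sequences and chromosome Y were rich in them, with 422 of 505 and 12 of 14 tested bins. On the 19 autosomes the share ran between 18.5% and 29.9% of tested bins, and it was 35.0% on chromosome X. Reads were unevenly spread over the chosen bins. The 10 deepest held 15.7% of their input reads, and the 100 deepest held 29.9%.

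The low-quality bins gave less reporter RNA per input read than the high-quality bins. Activity is the log2 ratio of pPGK reporter to input reads, each scaled to its library total, with a pseudocount of 1. Its median was -0.40 in low-quality bins (quartiles -1.0 and 0.05), against 0.20 in high-quality bins (quartiles -0.24 and 0.58). The difference of -0.60 is a 1.51-fold lower median. Over all 65601 bins the median was 0.01. The ratio was negative in 72.5% of low-quality bins and in 37.3% of high-quality bins. Pooling all reads gave the same order, with a log2 ratio of -0.34 over low-quality bins and 0.12 over high-quality bins. No replicate check and no p-value can be given, since each group is 1 library and bins are not replicates. The listed score is not independent of the readout, and its part in the difference between the 2 sets was not tested.

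**Figure D1:**
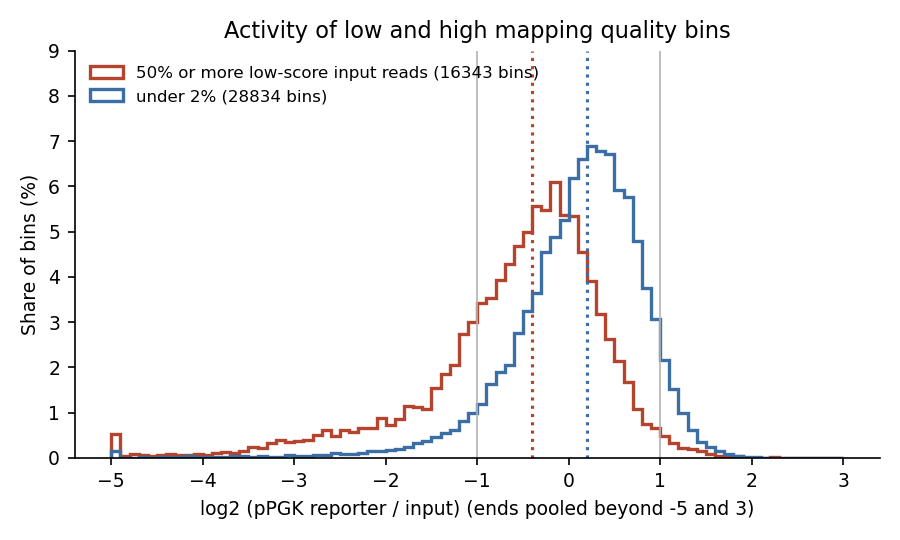
Activity of 16343 low-quality bins (red) and 28834 high-quality bins (blue), as the percentage of bins in steps of 0.1 log2. Dotted lines mark the medians of -0.40 and 0.20, and grey lines the 2-fold limits. The red curve lies to the left and has the longer left tail.

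A bin was called below or above input when its ratio was at least 2-fold, its exact (Clopper-Pearson) 95% interval excluded equality, and the counts held at least 50 reads in all. Of the low-quality bins 4099 were below input, or 25.1%, beside 12.9% of all bins tested and 6.19% of high-quality bins. Only 264 low-quality bins were above input, or 1.62%, beside 4.33% of all bins and 6.21% of high-quality bins. With the median of high-quality bins set to 0, these shares were 32.0% of low-quality and 8.98% of high-quality bins below input, and 0.802% and 2.54% above. The interval covers counting error only and had a median width of 0.66 log2 in low-quality bins and 0.73 in high-quality bins. PCR copies are not independent molecules, so that it is too narrow. Counting distinct 5′ positions in place of reads left 1561 low-quality bins below input, or 9.55% beside 3.25% of all bins and 0.0451% of high-quality bins. It left 6 above, or 0.0367% beside 0.36% of all bins and 0.572% of high-quality bins. The limit of 50 then applied to positions in place of reads. The median high-quality bin had 16 reporter and 8 input positions, against 52 and 44 in low-quality bins. Many high-quality bins could thus not be called in this way, and these shares cannot be compared between the sets.

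Activity declined in steps with the share of low-scoring input reads. The median was 0.20 under 2%, 0.11 at 2 to 10%, 0.08 at 10 to 25% and -0.06 at 25 to 50%. It was -0.24 at 50 to 75%, -0.37 at 75 to 90% and -0.51 at 90% or more. The share of bins below input went with it, from 6.19% in the lowest class through 16.0% at 25 to 50% to 28.1% in the highest. Bins above input went the other way, from 6.21% to 1.58%. The classes use the listed score too, and its part in these steps was not tested.

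**Figure D2:**
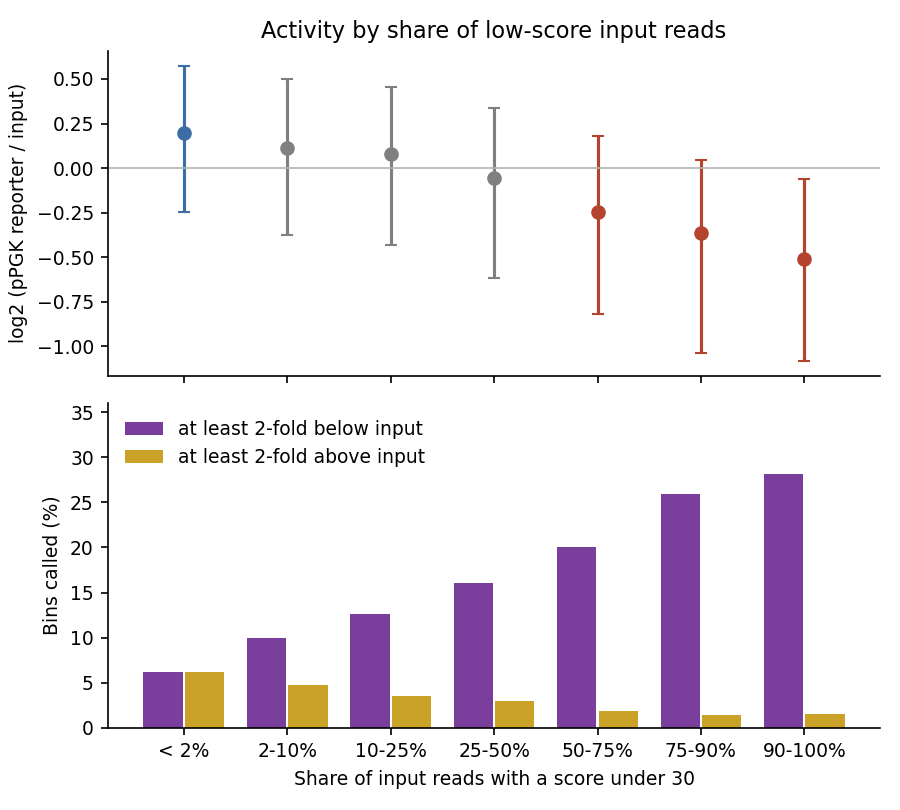
Upper panel: median activity (points) and quartiles (bars) of bins in 7 classes of the share of input reads scoring under 30. Lower panel: percentage of bins of each class called below (purple) or above (gold) input. Medians fall from 0.20 to -0.51 and the purple bars grow from 6.19% to 28.1%.

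The bins on either side of the limit overlapped. Just inside, chromosome 11, 103359001 to 103359500, had 50% of low-scoring reads, 674 reporter and 272 input reads and an activity of 0.05 (95% interval -0.15 to 0.26). Chromosome 1, 178820501 to 178821000, had 334 and 180 reads and -0.37, and chromosome 11, 101507501 to 101508000, had 469 and 170 reads and 0.20. Just outside, with 49.9% of low-scoring reads each, chromosome 18, 74996001 to 74996500, had 1241 and 691 reads and -0.41. Chromosome 2, 58278001 to 58278500, had 1548 and 645 reads and 0.01, and chromosome 15, 78606001 to 78606500, had 2015 and 637 reads and 0.40. The 3 values inside lie within the range of the 3 outside. At the limit on depth, the 267 chosen bins with exactly 50 input reads had a median of -0.21, and the 288 bins with 49 input reads that met the limit on scores had -0.20.

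Among the low-quality bins themselves, those with most reads at score 0 or 1 were lowest. The 5346 bins with at least 90% of input reads at these scores had a median activity of -0.58, and 28.9% were below input. The 7213 bins with 50 to 90% of such reads had -0.39, with 26.1% below. The 3784 bins with under 50% of such reads, whose low scores were more often between 2 and 29, had -0.09, with 17.7% below and 3.81% above. These last bins were shallower, with a median of 90 input reads against 114 and 183 in the sets named before. Over all 65601 bins tested, 12.9% were below input and 4.33% above. The sets of this paragraph use the listed score too, and its part in their order was not tested.

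The chromosomes showed the same order. On each of the 19 autosomes the median of low-quality bins was below that of high-quality bins, by a difference between -0.72 (chromosome 1) and -0.52 (chromosome 11). The low-quality medians ran from -0.51 to -0.34 and the high-quality medians from 0.11 to 0.27. On chromosome X the medians were -0.27 in low-quality bins and 0.31 in high-quality bins. Unplaced and random sequences had -0.25 in 422 low-quality bins and 0.03 in 23 high-quality bins. The 12 low-quality bins of chromosome Y had -1.05, and no high-quality bin was there to compare. The 4 low-quality bins of the mitochondrial sequence had -0.04, none called, and the 2 high-quality bins there had 0.29.

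Low-quality bins had a median of 128 input reads and high-quality bins 89. Input reads are a limit of the rule and the denominator of activity, so that activity tends to fall with them by construction, and the sets are compared here within classes of depth. At 50 to 99 input reads the medians were -0.31 in 6681 low-quality bins and 0.30 in 15950 high-quality bins. At 100 to 199 they were -0.47 and 0.17, and at 200 to 499 they were -0.52 and 0.04. At 500 to 1999 input reads the difference shrank to -0.34, with -0.49 in 2506 low-quality bins and -0.15 in 1401 high-quality bins. At 2000 or more reads the order turned round, with -0.31 in 970 low-quality bins and -0.80 in 51 high-quality bins. In that class 23.4% of low-quality bins and 35.3% of high-quality bins were below input.

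**Figure D3:**
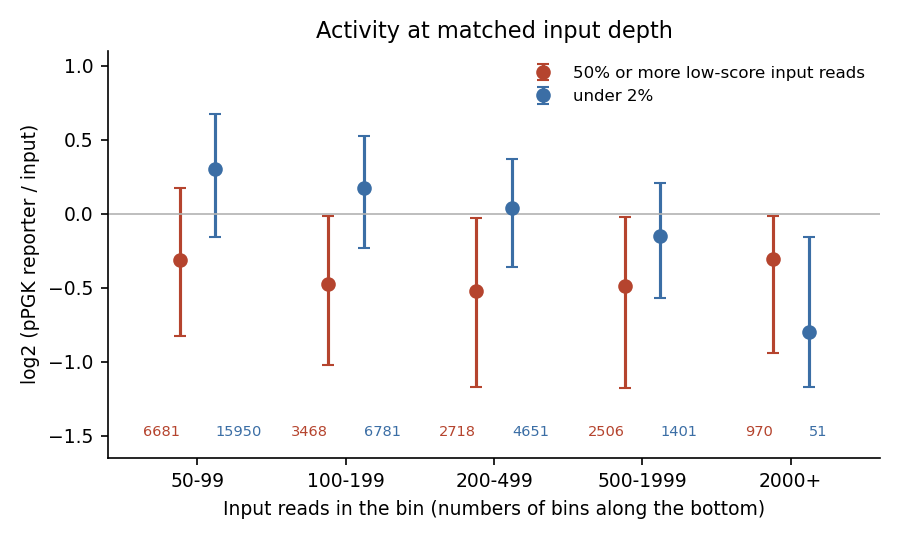
Median activity (points) and quartiles (bars) of low-quality bins (red, left of each pair) and high-quality bins (blue) in 5 classes of input reads, with the number of bins printed below. Red lies below blue in 4 classes and above it at 2000 or more reads, where 51 high-quality bins remain.

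Positions inside 1 bin share the bin's neighbourhood, so that low-scoring and high-scoring positions of the same bin were compared next. At least 50 input reads of each kind were present in 4657 low-quality bins. In these, the median activity was -0.53 at positions under 30 and -0.05 at positions of 30 or more. The median difference within a bin was -0.45 (quartiles -0.82 and -0.12), and low-scoring positions were lower in 3829 bins, or 82.2%. At least a 2-fold difference was seen in 786 bins with the low-scoring positions lower and in 94 with them higher. The 5322 bins under the 50% limit that had both kinds gave a median difference of -0.36. The score listed for a position can come from a reporter or an input read, so that it is not independent of the readout. In the pPGK file it was under 30 at 82.2% of 1605880 input positions without a reporter read in either pPGK file. Among 1396831 positions with input and pPGK reporter reads but no pPGK PMA_I reporter read, 90.9% scored under 30 in the pPGK file and 91.5% in the pPGK PMA_I file. Among 1557760 positions with reporter reads in both files, these shares were 18% and 3.98%, and among 136837 with a reporter read in pPGK PMA_I alone they were 19.5% and 1.86%. The listed score was equal in both files at 79.8% of positions where only pPGK had reporter reads. It was equal at 66.4% where both had them and at 65.5% where pPGK PMA_I alone did. The pPGK PMA_I file lists few low-scoring reporter reads. The part of the listed score in the difference within bins was not tested. With only positions that had reads in both counts, the median difference within 4343 low-quality bins was -0.29, against -0.45 with all positions. Low-scoring positions were then lower in 73.4% of bins. Over whole bins, that restriction left a median activity of -0.31 and 2563 low-quality bins below input, or 19.6% beside 11.5% of all bins, and 219 above input, or 1.67% beside 3.59% of all bins.

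**Figure D4:**
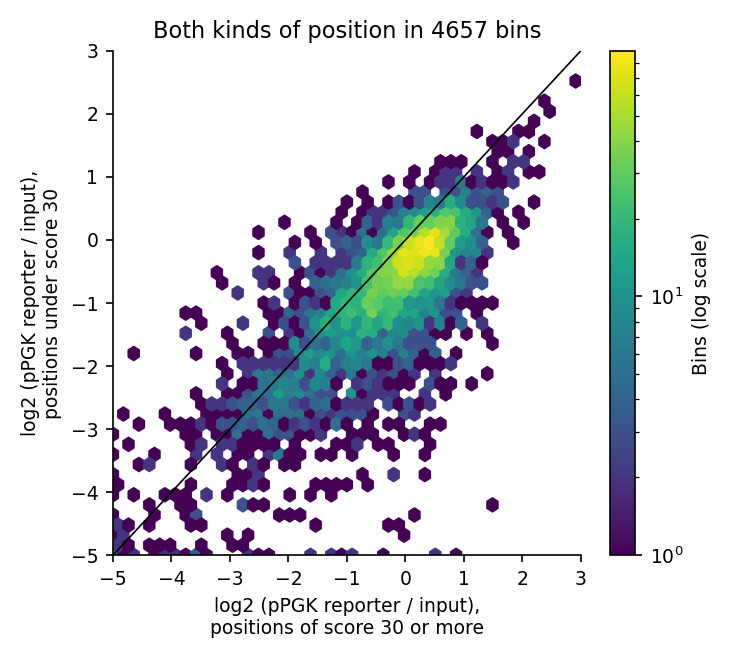
Activity at positions scoring under 30 (vertical) against activity at positions scoring 30 or more (horizontal) in the same 4657 low-quality bins, with values beyond -5 and 3 drawn at the edge. Colour gives the number of bins on a log scale. Most bins lie under the line of equality, with a median difference of -0.45.

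The deepest bins had activities close to the library average. Chromosome 2, 98507001 to 98507500, held 1558940 reporter and 731760 input reads, 94.2% of the input scoring under 30. Its activity was -0.16. Chromosome 12, 3110001 to 3110500, held 497375 and 236679 reads and had -0.18. Chromosome 2, 98502501 to 98503000, held 311589 and 140326 reads and had -0.10. Chromosome 6, 103599001 to 103599500, held 133486 and 71383 reads and had -0.35. Chromosome 9, 35113001 to 35113500, held 130276 and 61354 reads and had -0.17. All 5 were slightly below 0 and none reached the 2-fold limit. The 10 deepest bins ranged from -0.35 to -0.06, while the 1000 deepest ranged from -6.51 to 2.28, with 236 below input and 15 above. Among all low-quality bins 25.1% were below input and 1.62% above, and among all bins tested 12.9% and 4.33%.

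Long stretches differed in their median activity, and bins also varied within each of them. The longest, at chromosome 9, 2999501 to 3038500, had 78 bins with 1311 to 40835 input reads. Every bin in it lay between -0.30 and -0.06. The next, at chromosome 9, 121129501 to 121149000, had 39 bins between -1.38 and -0.61, of which 32 were below input. At chromosome X, 131575001 to 131591000, 29 of 32 bins were below input, with values from -2.50 to -0.91. At chromosome 4, 154214501 to 154227000, all 25 bins were below input, with a median of -2.07, 4556 reporter reads and 7968 input reads in all. In contrast, the 31 bins at chromosome 18, 20773001 to 20788500, had a median of 0.21 and a range from -0.05 to 0.65, with no call on either side. At chromosome X, 166436001 to 166447500, the 23 bins had a median of -0.32 and a range from -0.64 to 0.29, with no call.

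**Figure D5:**
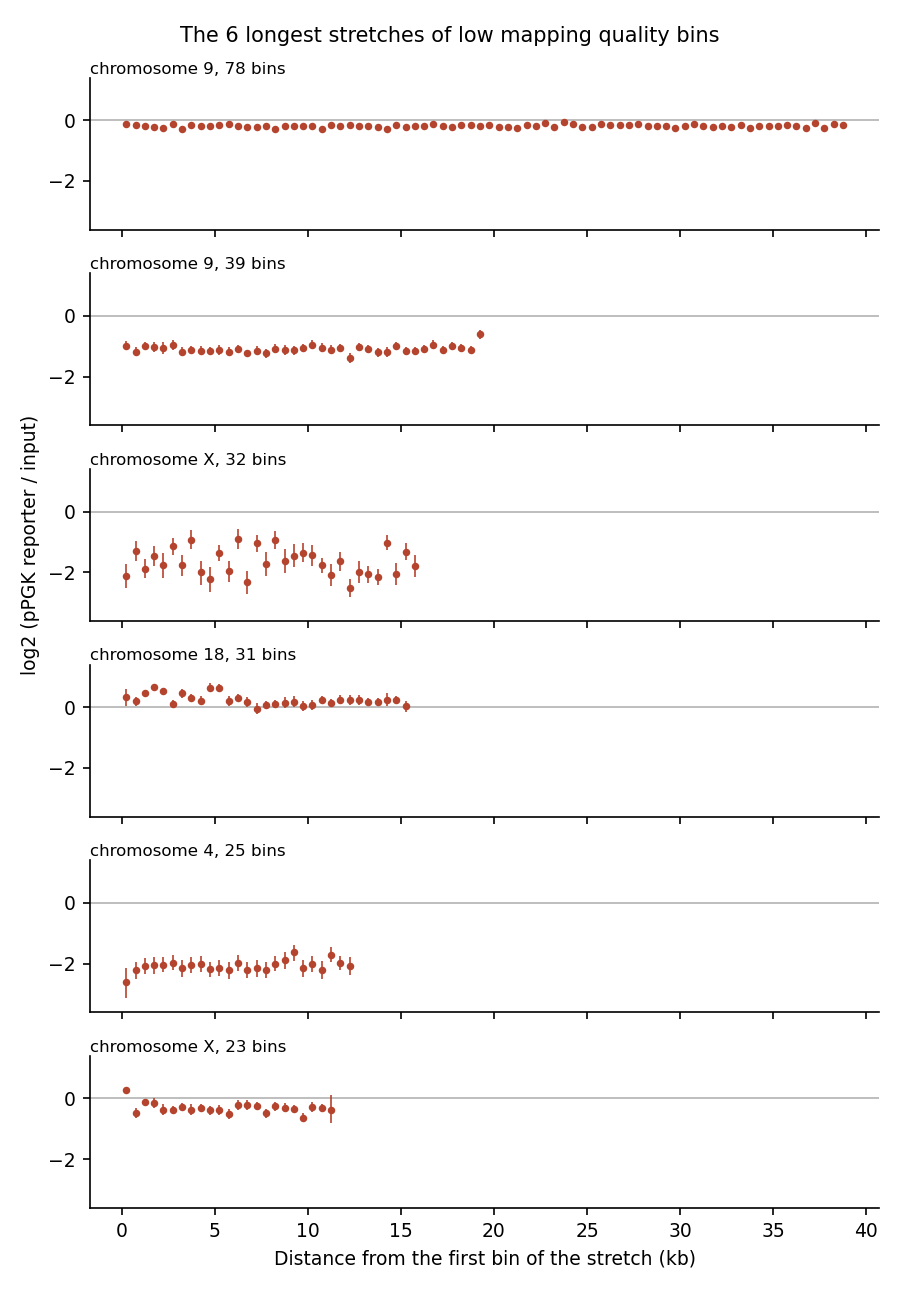
Activity of each bin in the 6 longest stretches of low-quality bins, by distance from the start of the stretch in kb. Bars are exact 95% intervals for counting error. The medians of the stretches differ, such as -0.19 in the first and -2.07 in the stretch on chromosome 4. The points spread least in the first stretch, from -0.30 to -0.06, and most in the third, from -2.50 to -0.91.

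Of the 356 stretches of 4 or more bins, 195 had a negative ratio in every bin and 33 a positive ratio in every bin. Among all low-quality bins 72.5% had a negative ratio, 25.1% were below input and 1.62% above. No matching count of stretches was made for high-quality bins, so that these numbers have no comparison. In 50 of the 356 stretches every bin was below input. Besides the 25 bins on chromosome 4, the longest of these had 8 bins, at chromosome 8, 12130501 to 12134500 (median -1.62). A stretch of 7 such bins lay at chromosome 14, 21073001 to 21076500 (median -2.49). In 1 stretch every bin was above input. It was at chromosome 4, 144425001 to 144427000, where 4 bins held 3379 reporter and 439 input reads and ranged from 1.42 to 1.85. The last 3 stretches were picked after their values were seen. Adjacent bins resembled each other more closely among low-quality bins, with a Spearman rho of 0.83 over 4685 pairs, than among high-quality bins, with 0.35 over 4383 pairs. Fragments of neighbouring bins can overlap in sequence and, where that sequence is repeated, their reads can be placed among copies. High-quality bins were also shallower, so that these values are descriptions.

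The most depleted low-quality bins had almost no reporter RNA. Chromosome 17, 70794001 to 70794500, gave 4 reporter reads on 4 positions against 418 input reads on 244 positions, an activity of -7.64 (95% interval -9.85 to -6.60). Chromosome 18, 32859501 to 32860000, gave 158 reporter and 6076 input reads, an activity of -6.51 (interval -6.76 to -6.29). It had the most reads of the 5, spread over 119 reporter and 437 input positions. Both kinds of position were low in it, with 144 reporter and 5586 input reads under 30, and 14 and 490 reads at 30 or more. By distinct positions its log2 ratio was -2.58. Chromosome 9, 61579501 to 61580000, gave 7 and 472 reads (-7.14), and chromosome 9, 73904001 to 73904500, gave 22 and 776 (-6.33). Chromosome 4, 94825501 to 94826000, gave 3 and 183 (-6.78, and -3.81 with the bin edges shifted). In all, 3 low-quality bins had 0 reporter reads.

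At the other end were the 5 low-quality bins with the highest lower interval bounds, taking at most 1 bin per stretch. By distinct positions none of them reached the 2-fold limit, with log2 ratios of 0.38, 0.49, 0.71 and 0.42 in the first 4 and -0.44 in the last. A count of distinct positions cannot show an excess of reads on the same positions, so that it does not decide on such an excess. Chromosome 15, 82984501 to 82985000, had 5186 reporter reads on 50 positions and 80 input reads on 23 positions, an activity of 4.75 (interval 4.44 to 5.10). Only 46 of its reporter reads lay at positions that also had input reads, and over such positions its activity was -1.31. With the bin edges shifted its activity was 0.97. Chromosome 8, 90579001 to 90579500, had 7882 reporter and 469 input reads, an activity of 2.81, and 6374 of the reporter reads lay at positions with input reads. Chromosome 18, 84235001 to 84235500, had 1111 and 69 reads (2.73), and chromosome 18, 42683001 to 42683500, had 1729 and 145 reads (2.31). Chromosome 2, 93400001 to 93400500, was the deepest of the 5, with 43137 reporter reads on 284 positions and 3711 input reads on 236 positions. Its activity was 2.28 (interval 2.24 to 2.33), with 34781 and 3058 reads under score 30 and 8356 and 653 reads at 30 or more.

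The other libraries can be set beside pPGK only at positions that score 30 or more and that neither pPGK file lists below 30. At least 50 such input reads were left for all 4 reporter libraries in 2768 low-quality bins and 15600 high-quality bins. These low-quality bins are thus the ones with the most uniquely placed reads. Counts were scaled here to the library totals at such positions, which were 46088485 reporter and 16822639 input reads for pPGK. The medians and shares below are thus on another scale than those given before. With SCP1, median activity was -0.26 in low-quality bins and -0.02 in high-quality bins. These medians were -0.21 and -0.11 for pPGK, -0.46 and -0.26 for pPGK PMA_I, and -0.16 and 0.03 for pR-Ea. The low-quality bins were lower in each library. The share below input was 22.7% of low-quality and 8.71% of high-quality bins with SCP1, beside 13.2% of all 30104 bins kept. It was 22.5% and 8.80% for pPGK, beside 13% of all, and 29.6% and 13.7% for pPGK PMA_I, beside 17.1%. With pR-Ea it was 15.5% and 4.72%, beside 8.32%. The pPGK and pPGK PMA_I values share 1 input. The share above input was 5.35% of low-quality and 4.53% of high-quality bins for SCP1, beside 4.37% of all. It was 2.57% and 1.46% for pPGK (1.71% of all), 2.06% and 1.99% for pPGK PMA_I (2.09%), and 0.470% and 0.994% for pR-Ea (0.784%). At these positions calls above input were rarer in low-quality bins for pR-Ea, and not for SCP1, pPGK or pPGK PMA_I. Of the 2768 bins, 234 were below input with SCP1, pPGK and pR-Ea alike, or 8.45%, beside 3.88% of all 30104 bins and 1.17% of the 15600 high-quality bins.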

How the data were processed

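Alignment was to build mm9, and the submitters' processing notes name Bowtie2, SAMtools and bedtools (version 2.28.0); no filter is stated. The authors deposited lists of fragments, nearly all 315 bp long. Column 5 of the deposited lists is a mapping quality score, and columns 7 and 8 are unnormalized whole-number counts of reads. Column 7 was read as reporter and column 8 as input, which no label states. It rests on the values: column 8 was the same at positions shared by both pPGK files.

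Each 5′ end listed on both strands (682234 of 9422958 pPGK positions) carried the same counts on its lines and was counted once, by its line with the lower score. Reads were placed at the fragment midpoint in bins of 500 bp. Counts were scaled to library totals of 72217277 reporter and 30248710 input reads. The comparison of libraries used totals at the positions kept for it instead. A position carries 1 listed score. It was equal in both pPGK files at all 1605880 input positions without reporter reads. It was equal at 79.8% of those with a pPGK reporter read only, and at 66.4% of those with reporter reads in both. Python 3.11.15, pandas 2.3.3 and SciPy 1.17.1 were used. The call rule was tested on simulated counts that held Poisson counting error only. They left out PCR copies, so that they do not show how the rule performs on these data. No test was run, since each group has 1 library. The chosen bins, the rules for naming bins and the alternatives were set with earlier results of these data known. Named bins were the 5 deepest, the 5 below and the 5 above input with the most extreme interval bound, 1 per stretch, and 3 on each side of the 50% limit. The planned sequence features were not run, since no genome of build mm9 was used. In all, 12 alternatives were planned and 3 were added after seeing the data.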

Additional observations from a re-analysis of the deposited data

Results flagged for a closer look

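Calls in opposite directions under different promoters were seen in a few low-quality bins, at positions of score 30 or more in the 2768 bins kept for all libraries. There were 4 above with SCP1 and below with pPGK, 3 above with SCP1 and below with pR-Ea, 1 above with pPGK and below with pR-Ea, and 1 above with pR-Ea and below with SCP1. Over all 30104 bins kept these calls numbered 13, 22, 11 and 9 in the same order. All opposite calls came to 0.325 per 100 low-quality bins and 0.226 per 100 of all bins. With 1 library per promoter these differences were not tested.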

How the results depend on the processing

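Under all 15 alternatives the median activity of low-quality bins, its difference from high-quality bins and the difference within bins were negative. Setting the median of high-quality bins to 0, or scaling to reads at score 30 or more, shifts both sides of a difference alike. These settings could not change either difference. All alternatives used the listed score, which is not independent of the readout. The median of low-quality bins (-0.40) was -0.60 with the median of high-quality bins set to 0, -0.59 scaled to reads at score 30 or more, -0.45 at a score limit of 10, -0.51 at a share of 90%, -0.47 at 200 input reads, -0.42 by distinct positions, -0.44 without the top positions, -0.44 on plus strand lines, -0.37 with each line counted, -0.45 with a pseudocount of 10, and -0.31 at positions with reads in both counts. The difference from high-quality bins (-0.60) was -0.63 at a score limit of 10, -0.71 at a share of 90%, -0.46 at 200 input reads, -0.54 by distinct positions, -0.63 without the top positions, -0.63 on plus strand lines, -0.62 with each line counted, -0.56 with a pseudocount of 10, and -0.39 at positions with reads in both counts. The difference within bins (-0.45) was -0.42 at a score limit of 10, -0.38 at a share of 90%, -0.33 by distinct positions, -0.31 on plus and -0.38 on minus strand lines, -0.42 with each line counted, -0.43 with a pseudocount of 10, and -0.29 at positions with reads in both counts. Bins below input (4099) numbered 2160 at a share of 90% and 1869 at 200 input reads, where fewer bins were tested, 1561 by distinct positions and 2563 at positions with reads in both counts. Bins above input (264) numbered 131 with the median of high-quality bins set to 0, 132 scaled to reads at score 30 or more, 157 at a score limit of 10, 121 at a share of 90%, 48 at 200 input reads, 6 by distinct positions, 136 without the top positions, 170 on plus strand lines and 173 with a pseudocount of 10. High-quality bins moved too: with their median set to 0, 2.54% were above input in place of 6.21% and 8.98% below in place of 6.19%, while low-quality bins had 0.802% above and 32.0% below. At 200 input reads 0.775% of low-quality and 2.03% of high-quality bins were above. With a pseudocount of 10 these shares were 1.06% and 3.58%, and scaled to reads at score 30 or more they were 0.808% and 2.58%. On plus strand lines 28.5% of low-quality and 10.0% of high-quality bins were below. Of the bins named above input, chromosome 15, 82984501 to 82985000, was at -1.31 at positions with reads in both counts, and chromosome 2, 93400001 to 93400500, at -0.44 by distinct positions. By distinct positions the other 4 were between 0.38 and 0.71, under the 2-fold limit, and the 5 bins named below input were between -6.32 and -2.58. Where no cause is named it was not tested. No paired analysis was possible because each group has 1 library.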

Other observations

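Reads were spread over more positions in low-quality bins than in high-quality bins. The median bin had 52 reporter and 44 input positions in the low-quality set, and 16 reporter and 8 input positions in the high-quality set. The position with most reads held a median of 14.4% of a bin's reporter reads and 12.5% of its input reads in low-quality bins, against 36.4% and 41.5% in high-quality bins. Positions without an input read held 5.91% of reporter reads in low-quality bins and 16.9% in high-quality bins, and positions without a reporter read held 5.45% and 2.50% of input reads. Activity on plus and minus strand lines of a bin had a Spearman rho of 0.36 over 4983 low-quality bins. The rho was 0.17 over 7577 high-quality bins. These bins had at least 50 input reads on each strand and are not independent replicates. The 682234 positions listed on both strands carried the same counts on both lines, so that their reads cannot be split by strand. Such positions were counted by the line with the lower score. The rho values are therefore not a clean comparison of the strands.

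The pPGK PMA_I file lists 700179 reporter reads and 9716840 input reads at positions scoring under 30, against 25910513 and 13313336 in the pPGK file. The lowest score in the SCP1 and pR-Ea files was 30.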
